A study of Homo sapiens with 4 samples.

Results

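The tumour necrosis factor (TNF) superfamily was examined in MDA-MB-453, a human breast cancer cell line, by RNA sequencing of 2 libraries labelled TMEM9 KD and 2 labelled wild type (WT). TMEM9 encodes a membrane protein of endosomes and lysosomes. The sources used here do not state how its expression was lowered, and both groups carry the same cell line label with no treatment or time. The members are defined by symbol: every protein-coding gene of the deposited count table named TNFSF, TNFRSF or TRAF1 to TRAF7, plus TNF, LTA, LTB, CD40, CD70, FAS, EDAR and EDA2R. This gave 48 genes of 48162 in the table, 19211 of them protein-coding. By role they were 16 ligands, 7 receptors with a death domain, 4 decoy receptors, 14 other receptors and 7 TRAF proteins.

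Ligands of this superfamily are mostly membrane-anchored trimers, and some can be cut off by proteases and act as soluble cytokines. Their receptors fall into those with a death domain, which can assemble caspase-activating complexes, those that bind TRAF adaptors directly and pass the signal to NF-kB and JNK, and decoys that bind a ligand without a full signal. TRAF proteins connect the receptors to kinases, and most of them are ubiquitin ligases. In breast epithelium the family is best known for RANK ligand and RANK, which drive mammary gland development, and in tumours for the death receptors of TRAIL and FAS ligand.

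Each library held 15323843 to 18517337 counts. TMEM9 itself had 51 and 78 counts in the TMEM9 KD libraries, against 1120 and 1497 in the WT libraries, a log2 fold change of -4.37 (adjusted p = 4.12e-52, edgeR quasi-likelihood test). Among genes known to mark MDA-MB-453 or luminal breast cells, ERBB2, a receptor tyrosine kinase, had 873 to 1146 counts per library, and KRT8, KRT18 and XBP1 were also well covered. SPDEF, KRT19, EPCAM and CDH1, which mark luminal epithelium, had at most 9 counts in any library, while FOXA1 (log2 fold change 1.48) and GATA3 (1.29), also luminal, were higher in TMEM9 KD. The libraries thus did not show the full luminal programme of the label. VIM, a mesenchymal filament, averaged 1793 CPM (read counts per 1000000 reads of the library, its size scaled by the TMM method) in TMEM9 KD libraries and 1347 CPM in WT libraries. Of 11 tested fibroblast markers 6 were higher and 4 lower, where 28.7% and 29% of all tested genes were. The summed level of the fibroblast markers was 3577 and 3668 CPM in TMEM9 KD and 3585 and 3635 CPM in WT. These nearly equal sums hold opposite shifts of single genes. COL1A1 averaged 1384 CPM in TMEM9 KD and 822 CPM in WT. COL3A1 had 27.7 and 34.4 CPM in TMEM9 KD, against 946 and 965 CPM in WT. Of 10 basal epithelial markers 9 were lower in TMEM9 KD, where 29% of all tested genes were. KRT5 and KRT14 had no count in either TMEM9 KD library. KRT5, KRT14 and KRT6A had enough reads for testing only in the WT libraries, and the fibroblast marker LUM only in the TMEM9 KD libraries. The labels do not state whether both groups derive from the same culture, so the effect of TMEM9 and a difference between cultures cannot be told apart in any value that follows. The labels do not state whether the 2 libraries of a group are separate cultures, and each p-value therefore reflects library-to-library spread that may be only technical.

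Of the 48 members, 32 had enough reads to be tested. Among them 26 passed an adjusted p of 0.05 (81.2%), where 57.7% of all 14923 tested genes did. The balance was towards lower expression. There were 19 members lower in TMEM9 KD (59.4%, against 29% of all tested genes) and 7 higher (21.9%, against 28.7%). By at least 2-fold, 9 members were lower (28.1%, against 10.1%) and 5 were higher (15.6%, against 7.24%). The values of the TMEM9 KD and WT libraries did not overlap for 28 of the 32 members (87.5%), where 77.6% of all tested genes showed no overlap. The median log2 fold change was -0.56 over the tested members and 0.01 over all tested genes. Of the 32, 26 passed the read filter in both groups (15 lower, 5 higher, 6 not called), while 4 passed only through the WT libraries and 2 only through the TMEM9 KD libraries. Those 6 low members are TNFRSF25, TNFSF10, TNFSF14, EDA2R, TNFSF13 and TNFSF13B, and their calls are tied to the way they passed. All 6 are among the members called with at least a 2-fold difference, the first 4 lower and the last 2 higher. The 2-fold shares of the members above thus rest in part on the filter.

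**Figure D1:**
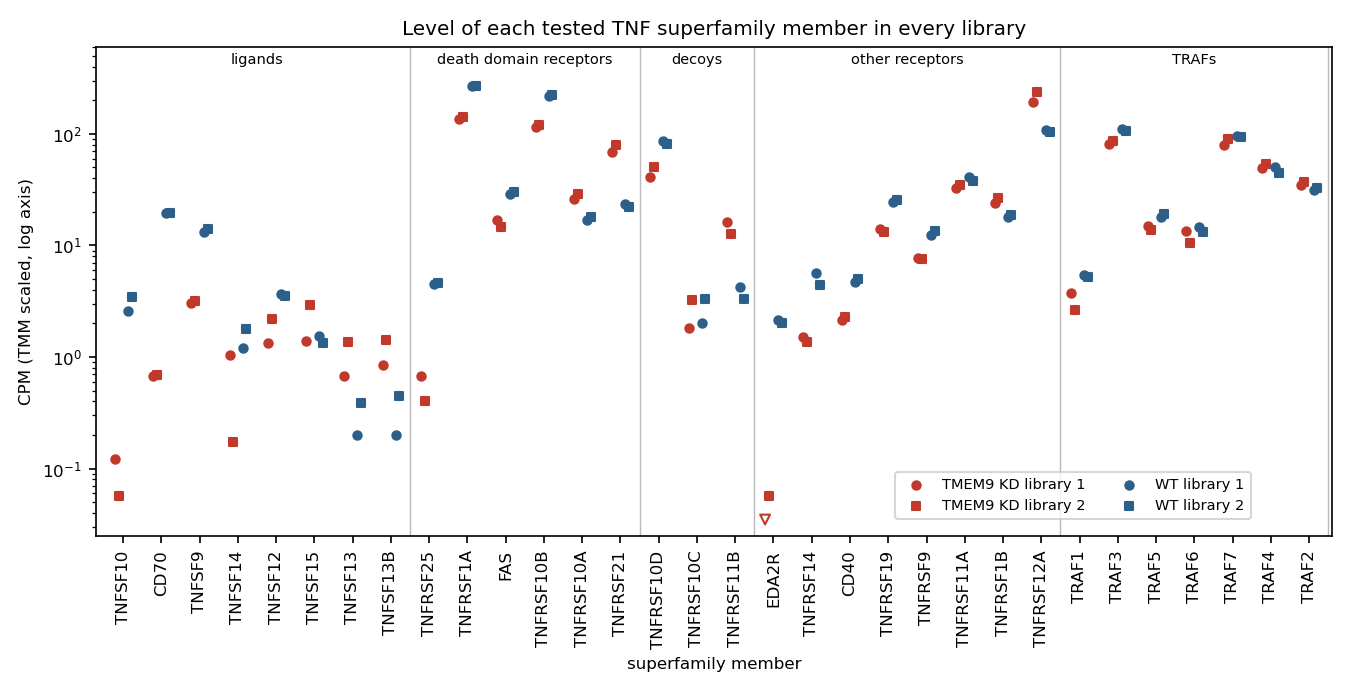
Expression of the 32 tested members in every library, in CPM scaled by TMM (log axis), grouped by role, with TMEM9 KD in red and WT in blue. An open triangle at the bottom marks a library with no count. CD70 lay at 0.671 and 0.686 CPM in TMEM9 KD libraries and 19.5 CPM in each WT library, and TNFRSF12A at 194 and 235 CPM in TMEM9 KD libraries and 108 and 104 CPM in WT libraries.

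To compare different genes, levels were taken as CPM per kilobase of exon. In TMEM9 KD libraries the members with the most CPM per kilobase were TNFRSF12A (116), TNFRSF1A (34.9), TNFRSF10B (22.8), TNFRSF21 (20.7) and TRAF7 (18.8). In WT libraries they were TNFRSF1A (66.9), TNFRSF12A (57.5), TNFRSF10B (42.6), TNFRSF10D (23.5) and TRAF7 (21). TNFRSF12A, the receptor of the ligand TWEAK, and TNFRSF1A, the main receptor of TNF, thus exchanged the top place. TNFRSF21 was at place 4 in TMEM9 KD and place 12 in WT libraries, and CD70 was at place 25 in TMEM9 KD and place 7 in WT libraries.

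**Figure D2:**
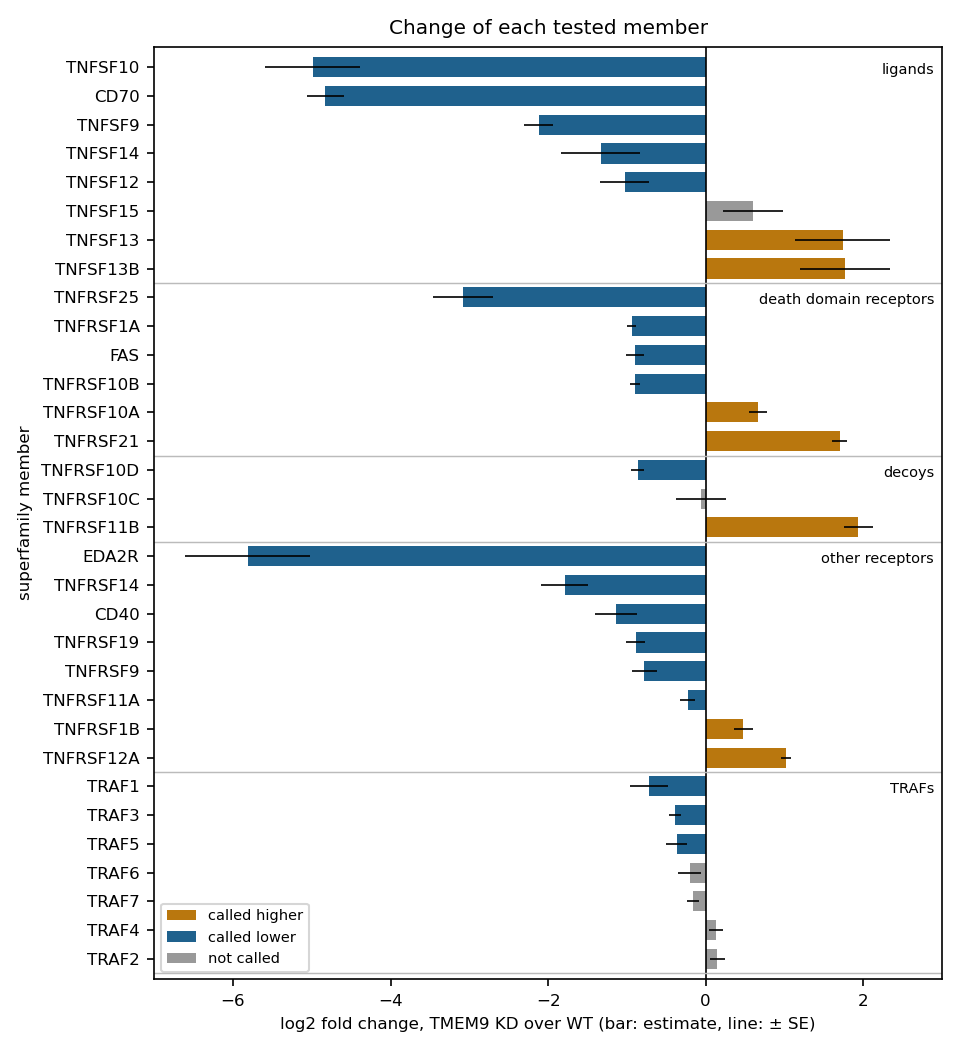
Log2 fold change of TMEM9 KD over WT for each tested member (bars) with its standard error (lines), ordered within each role. Ligands and receptors spread to both sides, -5.81 to 1.94, while the 7 TRAF genes lie between -0.72 and 0.15; the longest bars, TNFSF10 and EDA2R, rest on 3 counts and 1 count in TMEM9 KD.

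Ligands were the group with the lowest median. Of 8 tested ligands 5 were lower in TMEM9 KD, 2 were higher and 1 was not called, with a median log2 fold change of -1.18. Over all tested genes 29% were lower and 28.7% higher. TNFSF10 and TNFSF14 passed the read filter only through the WT libraries, and TNFSF13 and TNFSF13B only through the TMEM9 KD libraries. Their directions are tied to that, so these counts and the median partly reflect the filter. Summed over all 16 ligands, expression was 10.2 and 12.6 CPM in the TMEM9 KD libraries, against 43.2 and 45.8 CPM in the WT libraries. Most of that difference lay in CD70 and TNFSF9, which together hold most of the WT sum. In bulk RNA, fewer cells of a type and less RNA per cell cannot be told apart, here and in every result that follows.

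CD70, a membrane ligand that stimulates T cells through CD27, had 11 and 12 counts in the TMEM9 KD libraries, against 292 and 351 counts in the WT libraries. It was 28.4-fold lower in TMEM9 KD, a log2 fold change of -4.83 ± 0.234 (SE; adjusted p = 2.31e-34, edgeR quasi-likelihood test). The libraries of each group were nearly alike and far from the other group. TNFSF9, the ligand of the T cell receptor TNFRSF9, had 3.05 and 3.2 CPM in TMEM9 KD, against 13.2 and 13.9 CPM in WT. Its log2 fold change was -2.12 ± 0.188 (edgeR, adjusted p = 8.96e-18), and again no library crossed between the groups.

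TNFSF14, known as LIGHT and a ligand of TNFRSF14 and the lymphotoxin beta receptor, lies next to these ligands on chromosome 19. It had 17 and 3 counts in the TMEM9 KD libraries and 18 and 32 counts in the WT libraries. TMEM9 KD library 1 was thus close to WT library 1, and the groups were separated mainly by TMEM9 KD library 2. The log2 fold change was -1.33 ± 0.5 (edgeR, adjusted p = 0.0179) and shrank to -0.54 (adjusted p = 0.444) without TMEM9 KD library 2. Where a library is left out, the lone library of its group is assumed to vary like those of the other group. The adjusted p was also 0.264 without WT library 2 and 0.151 with DESeq2, with a range of 0.000801 to 0.444 over the alternatives tried.

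The 3 ligand genes TNFSF9, CD70 and TNFSF14 follow one another in that order along the chromosome. In a stretch of 15 protein-coding genes around them, 10 were tested, of which 6 were lower and 3 higher in TMEM9 KD. Leaving aside the 3 ligands that set the stretch, 3 of 7 tested genes were lower and 3 higher, where 29% and 28.7% of all tested genes were. The lower ones were C3, the central complement component (-1.35), GPR108 (-0.69) and SH2D3A (-1.92), all beyond TNFSF14, where ADGRE1 was higher (0.58). On the TNFSF9 side the nearest tested genes, SLC25A23 (log2 fold change 0.65) and KHSRP (0.36), were higher. Over all 951 tested genes of chromosome 19 the median log2 fold change was 0.06.

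**Figure D3:**
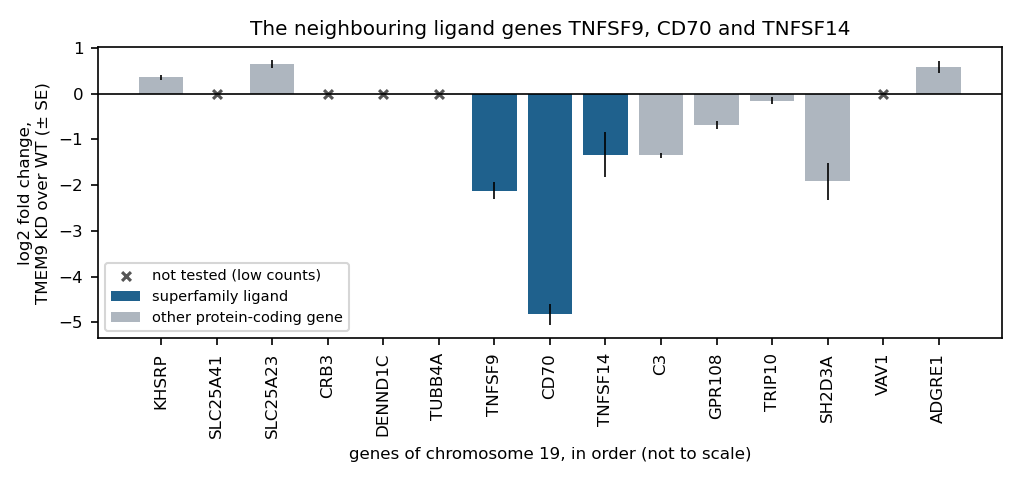
Log2 fold change of TMEM9 KD over WT (bars, with standard error) for 15 neighbouring protein-coding genes of chromosome 19 in their order, with the superfamily ligands in blue; crosses mark genes with too few counts to test. The 3 ligands, C3, GPR108 and SH2D3A were lower, and KHSRP, SLC25A23 and ADGRE1 were higher.

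TNFSF10, which encodes the death ligand TRAIL, had 2 and 1 counts in the TMEM9 KD libraries, against 39 and 62 counts in the WT libraries. The level in WT was 34.6 times that in TMEM9 KD, with a 95% exact interval of 11.5 to 171 for counting error, and it fell in TMEM9 KD by the edgeR quasi-likelihood test (adjusted p = 9.73e-12). TNFSF12, the ligand TWEAK, had 1.34 and 2.17 CPM in TMEM9 KD and 3.67 and 3.55 CPM in WT. Both TMEM9 KD libraries lay below both WT libraries, with a log2 fold change of -1.03 (edgeR, adjusted p = 0.00322). Without TMEM9 KD library 1 the adjusted p was 0.0606, within a range of 0.000867 to 0.114 over the alternatives. Its exons share 29.4% of their length with the read-through gene TNFSF12-TNFSF13, which had no count in any library.

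The 2 ligands that were higher were both B cell survival factors. TNFSF13, known as APRIL, had 11 and 24 counts in TMEM9 KD and 3 and 7 in WT (log2 fold change 1.74; edgeR, adjusted p = 0.00971). TNFSF13B, known as BAFF, had 14 and 25 counts in TMEM9 KD and 3 and 8 in WT (log2 fold change 1.77; edgeR, adjusted p = 0.00612). In both genes the TMEM9 KD libraries were above the WT libraries, and in each group library 2 held more counts than library 1. Neither call held without TMEM9 KD library 2, where the log2 fold change was 1.13 for TNFSF13 (edgeR, adjusted p = 0.342) and 1.34 for TNFSF13B (0.207), or without WT library 1, where it was 1.38 (0.162) and 1.35 (0.143). With DESeq2 the log2 fold changes were 1.77 and 1.80, about as in edgeR, with adjusted p-values of 0.0976 and 0.0734. Over the alternatives the adjusted p ranged from 0.00668 to 0.342 for TNFSF13 and from 0.00409 to 0.207 for TNFSF13B. Of the exons of TNFSF13, 55.5% overlap TNFSF12-TNFSF13.

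TNFSF15, a ligand of the death receptor TNFRSF25, was not called. It had 1.4 and 2.92 CPM in TMEM9 KD and 1.54 and 1.33 CPM in WT, overlapping between the groups (log2 fold change 0.60; edgeR, adjusted p = 0.165).

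The other 8 ligands were at or near 0 and were not tested. They are TNF, the lymphotoxins LTA and LTB, TNFSF4, TNFSF8, TNFSF11, TNFSF18 and TNFSF12-TNFSF13. TNF had 3 and 4 counts in TMEM9 KD and none in WT. With the WT group set at 3 counts, the TMEM9 KD level was 2.27 times the WT level. TNFSF11, the RANK ligand, had no count in TMEM9 KD and 1 and 10 counts in WT, resting almost wholly on WT library 2. With the TMEM9 KD group set at 3 counts, its WT level was 3.77 times the TMEM9 KD level. Both ratios take the counts of the group with reads as exact, so neither is a lower limit. With no filter on low counts the edgeR adjusted p was 0.175 for TNF and 0.0455 for TNFSF11. So few reads place TNF mRNA at the detection limit in both groups.

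Of the 25 receptors, 17 were tested, of which 11 were lower and 5 higher in TMEM9 KD, with a median log2 fold change of -0.86. Over all tested genes 29% were lower and 28.7% higher, so higher receptors were about as frequent as higher genes in general. Among the lower receptors, TNFRSF25 and EDA2R passed the read filter only through the WT libraries. The receptors of TNF moved in opposite directions. TNFRSF1A, the death domain receptor that carries most TNF responses, had 136 and 143 CPM in TMEM9 KD, against 266 and 270.4 CPM in WT, a log2 fold change of -0.94 ± 0.0614 (edgeR, adjusted p = 1.63e-25). TNFRSF1B, which lacks a death domain and recruits TRAF2, had 24 and 26.7 CPM in TMEM9 KD and 17.8 and 18.6 CPM in WT, a log2 fold change of 0.48 ± 0.117 (edgeR, adjusted p = 0.000245). No library crossed between the groups for either gene. Per kilobase, TNFRSF1B made up 15.7% and 16.6% of the summed TNF receptor mRNA in TMEM9 KD libraries, against 6.64% and 6.8% in WT libraries.

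FAS, the receptor of FAS ligand, had 16.9 and 14.6 CPM in TMEM9 KD, against 28.7 and 30.1 CPM in WT (log2 fold change -0.90 ± 0.117; edgeR, adjusted p = 9.79e-11). Its own ligand gene FASLG had no count in any library. Of the exons of FAS, 8.93% overlap the opposite-strand gene ACTA2, and the strand setting of the counting is not given.

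The 4 receptors of TRAIL share related sequences, so reads could be divided among them in the authors' counting. TNFRSF10B, a death receptor and the most expressed of them, had 116 and 119 CPM in TMEM9 KD and 218 and 221 CPM in WT. It fell by 0.90 on the log2 scale (SE 0.0634; edgeR, adjusted p = 1.9e-23). TNFRSF10A, the other death receptor of TRAIL, was higher instead. It had 26.1 and 29.1 CPM in TMEM9 KD and 16.8 and 18 CPM in WT, a log2 fold change of 0.66 ± 0.116 (edgeR, adjusted p = 5.89e-07). Of the TNFRSF10A exons, 7.59% overlap TNFRSF10A-AS1 and 9.01% overlap TNFRSF10A-DT, both on the opposite strand, and the strand setting is not given. TNFRSF10D, a decoy with a truncated death domain, had 41 and 50.3 CPM in TMEM9 KD and 85.8 and 80.6 CPM in WT (log2 fold change -0.86; edgeR, adjusted p = 3.29e-16). TNFRSF10C, a decoy held to the membrane by a lipid anchor, had 1.83 and 3.26 CPM in TMEM9 KD, against 2 and 3.28 CPM in WT, and its groups overlapped (log2 fold change -0.06; edgeR, adjusted p = 0.878).

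Per kilobase, TNFRSF10A made up 20.1% of TRAIL receptor mRNA in each TMEM9 KD library, against 7.78% and 8.3% in the WT libraries. The share of TNFRSF10B was 51.3% and 47.2% in TMEM9 KD and 57.7% and 58.3% in WT. The decoy TNFRSF10D kept pace with TNFRSF10B, its log2 ratio to it being -1.50 and -1.24 in TMEM9 KD and -1.34 and -1.46 in WT. The log2 ratio of TNFRSF10A to TNFRSF10B was -2.16 and -2.03 in TMEM9 KD, against -3.69 and -3.62 in WT. These shares and ratios are given as values in each library, and the differences between the groups in them were not tested.

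**Figure D4:**
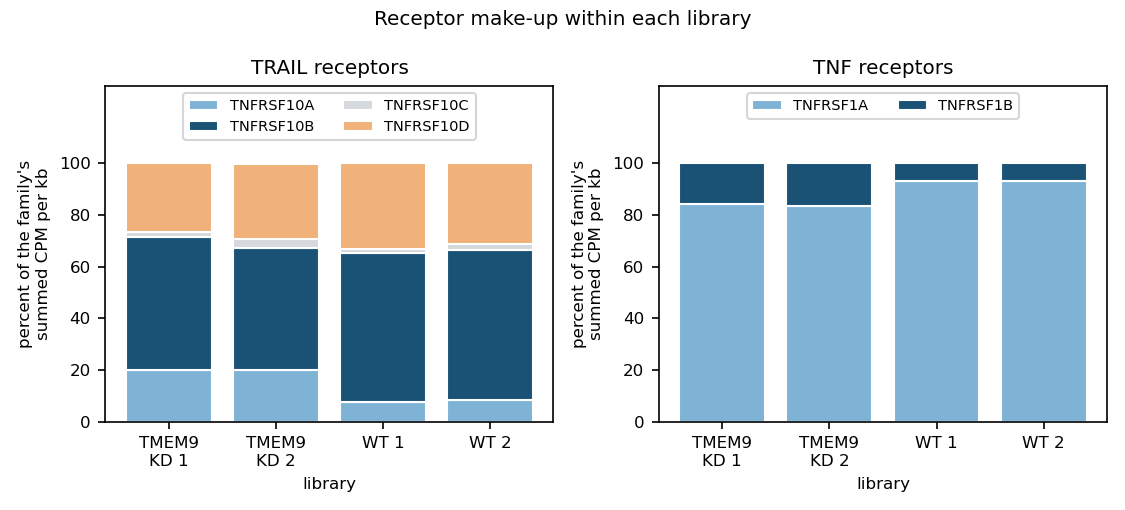
Share of each receptor in the summed CPM per kilobase of the 4 TRAIL receptors (left) and the 2 TNF receptors (right) in each library. TNFRSF10A took 20.1% in both TMEM9 KD libraries against 7.78% and 8.3% in WT, and TNFRSF1B took 15.7% and 16.6% in TMEM9 KD against 6.64% and 6.8% in WT.

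TNFRSF21, a death domain receptor known from neurons and lymphocytes, was the member with the largest rise among the death domain receptors. It had 69.1 and 79.5 CPM in TMEM9 KD, against 23.5 and 22.3 CPM in WT, 3.25-fold higher (log2 fold change 1.70 ± 0.0921; edgeR, adjusted p = 5.9e-31). TNFRSF25, the receptor of TNFSF15, had 11 and 7 counts in TMEM9 KD and 67 and 83 counts in WT (log2 fold change -3.08 ± 0.377; edgeR, adjusted p = 1.42e-11). Both genes separated the groups without overlap, in opposite directions. Parts of the TNFRSF25 exons overlap ESPN on the opposite strand (8.94%) and PLEKHG5 on the same strand (2.43%). EDAR, the death domain receptor of ectodysplasin, had 1 count in all, so of the 7 death domain receptors 4 were lower, 2 higher and 1 not tested. The shares over all tested genes were 29% lower and 28.7% higher.

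The soluble decoy TNFRSF11B, osteoprotegerin, binds RANK ligand and TRAIL. It had 267 and 222 counts in TMEM9 KD, against 64 and 60 counts in WT, 3.83-fold higher (log2 fold change 1.94 ± 0.183; edgeR, adjusted p = 1.9e-16). This was the largest rise among the tested members. Its signalling counterpart TNFRSF11A, the receptor RANK, had 32.9 and 34.6 CPM in TMEM9 KD and 41.4 and 37.7 CPM in WT, a log2 fold change of -0.23 (edgeR, adjusted p = 0.036). That small fall did not hold without TMEM9 KD library 1 (edgeR, adjusted p = 0.107) or WT library 1 (0.333), with DESeq2 (0.113) or on library size alone (0.165). Over its alternatives the adjusted p ran from 0.0194 to 1. The log2 ratio of TNFRSF11B to TNFRSF11A was -1.02 and -1.44 in TMEM9 KD, against -3.28 and -3.50 in WT. The remaining decoy, TNFRSF6B, had no count in any library, and its exons lie wholly within those of the read-through gene RTEL1-TNFRSF6B.

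The receptors without a death domain included 6 that were lower and 2 that were higher among 8 tested. The shares over all tested genes were 29% lower and 28.7% higher. Of these 8 receptors TNFRSF12A rose most. It had 194 and 235 CPM in TMEM9 KD, against 108 and 104 CPM in WT, 2.02-fold higher (log2 fold change 1.02 ± 0.0676; edgeR, adjusted p = 4.83e-25), while its ligand TNFSF12 was lower. TNFRSF19, known from hair follicle and neural development, had 14.1 and 13.2 CPM in TMEM9 KD and 24.6 and 25.8 CPM in WT (log2 fold change -0.89; edgeR, adjusted p = 1.12e-09). Neither gene overlapped between the groups. TNFRSF19, TNFSF11 and TNFSF13B lie on chromosome 13, where the median log2 fold change over 231 tested genes was -0.62. TNFRSF19 was thus close to that median and TNFSF13B above it, and the part of a chromosome-wide shift in either value was not tested.

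EDA2R, a receptor of the ectodysplasin isoform EDA-A2, had no count and 1 count in the TMEM9 KD libraries, against 32 and 36 counts in the WT libraries. The WT level was 69.9 times the TMEM9 KD level, with a 95% exact interval of 12.1 to 2799 for counting error (edgeR, adjusted p = 6.29e-10). The ligand gene EDA moved the same way, with 3 and 13 counts in TMEM9 KD and 71 and 88 counts in WT (log2 fold change -3.33; edgeR, adjusted p = 2.11e-12). NGFR, the neurotrophin receptor of the superfamily that carries another symbol, had 7 and 8 counts in TMEM9 KD, against 655 and 738 counts in WT (log2 fold change -6.56; edgeR, adjusted p = 1.57e-48). These 3 genes were close to absent in TMEM9 KD libraries and present in both WT libraries. All 3 passed the read filter only through the WT libraries, so their calls are tied to that.

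TNFRSF14, CD40 and TNFRSF9, receptors that T cells, B cells or antigen-presenting cells use for co-stimulation, were lower in TMEM9 KD. TNFRSF14, which binds TNFSF14, had 25 and 24 counts in TMEM9 KD and 85 and 79 counts in WT (log2 fold change -1.79; edgeR, adjusted p = 1.85e-07). Its exons share 13.4% of their length with an antisense gene. CD40, which receives CD40 ligand, had 2.13 and 2.29 CPM in TMEM9 KD and 4.67 and 5.05 CPM in WT (log2 fold change -1.14; edgeR, adjusted p = 0.000161). TNFRSF9, the receptor of TNFSF9, had 7.68 and 7.49 CPM in TMEM9 KD and 12.5 and 13.5 CPM in WT (log2 fold change -0.78; edgeR, adjusted p = 1.55e-05). In all 3 genes both TMEM9 KD libraries lay below both WT libraries. TNFRSF4, TNFRSF8, TNFRSF13B, TNFRSF13C, TNFRSF17 and TNFRSF18, known from T and B cells, were near 0 and not tested.

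Leukocyte markers differed between the groups as well. Of 16 such genes 5 were tested, 4 lower and 1 higher in TMEM9 KD, where 29% and 28.7% of all tested genes were. The summed level of the 16 was 13.4 and 14 CPM in TMEM9 KD libraries, against 201 and 199 CPM in WT libraries. LCP1, an actin-bundling protein that tumour cells also express, accounted for 186 and 183 CPM of the WT sums. CD14 had 12 and 29 counts in TMEM9 KD, against 93 and 150 in WT (log2 fold change -2.59). CD74 had 0 and 3 counts in TMEM9 KD, against 61 and 50 in WT (-5.15), and CSF1R was also lower (-1.03). CD74 passed the read filter only through the WT libraries. CD3E, CD8A, MS4A1 and LYZ had no count in any library. PTPRC, the common leukocyte antigen, was higher in TMEM9 KD (72 and 70 counts, against 34 and 50 in WT). The part of such cells in the levels of CD70, TNFSF9, CD40 and the other immune members was not tested.

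Altogether 16 members were not tested, 8 ligands and 8 receptors. They had 0 to 10 counts in a library and 0 to 23 counts over all 4, with 12 of them under 10 in all. TNFRSF4, TNFRSF6B and TNFSF12-TNFSF13 had no count at all. For TNFRSF4, a count of 0 allows a level of up to 0.183 and 0.172 CPM in the TMEM9 KD libraries and up to 0.2 and 0.167 CPM in the WT libraries, for counting error only. No such limit holds for the other two, since reads shared between genes may have been dropped in the authors' counting. The exons of TNFSF12-TNFSF13 overlap those of TNFSF12 (30.5%) and TNFSF13 (69.5%), and those of TNFRSF6B lie within RTEL1-TNFRSF6B, which averaged 3.68 CPM in TMEM9 KD and 2.52 CPM in WT. Of these members only TNFSF11 passed the threshold when the count filter was lifted.

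The TRAF genes had the narrowest range of log2 fold changes of the 5 roles, -0.72 to 0.15. All 7 were tested, 3 were lower, none was higher and 4 were not called, with a median log2 fold change of -0.20. Over all tested genes 29% were lower and 28.7% higher. TRAF3, which restrains the alternative NF-kB pathway, had 80.4 and 86.3 CPM in TMEM9 KD and 111 and 107 CPM in WT (log2 fold change -0.39 ± 0.0712; edgeR, adjusted p = 1.58e-06). TRAF5 had 15 and 13.7 CPM in TMEM9 KD and 17.8 and 19.1 CPM in WT (log2 fold change -0.37; edgeR, adjusted p = 0.0126). TRAF1, itself an NF-kB target, averaged 3.21 ± 0.813 CPM in TMEM9 KD and 5.29 ± 0.172 CPM in WT (SD, n = 2 each; log2 fold change -0.72; edgeR, adjusted p = 0.00772). The last 2 calls were less firm than that of TRAF3. Without TMEM9 KD library 2 the edgeR adjusted p was 0.11 for TRAF1 and 0.0603 for TRAF5, without WT library 2 it was 0.113 for TRAF5, and DESeq2 gave 0.0678 and 0.0693. Their ranges over the alternatives were 0.00138 to 0.413 and 0.00855 to 1.

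TRAF2, the main adaptor of TNFRSF1B and, through TRADD, of TNFRSF1A, averaged 35.8 ± 1.55 CPM in TMEM9 KD and 32.1 ± 0.972 CPM in WT (log2 fold change 0.15). TRAF6, which also serves Toll-like and interleukin-1 receptors, averaged 12 ± 1.92 CPM in TMEM9 KD and 13.8 ± 1.06 CPM in WT (-0.20). TRAF4 averaged 51.5 ± 3.35 CPM in TMEM9 KD and 47.3 ± 3.91 CPM in WT (0.13), and TRAF7 84.5 ± 6.66 CPM in TMEM9 KD and 94.3 ± 0.542 CPM in WT (-0.16). For these 4 genes the adjusted p lay between 0.0554 and 0.236 (edgeR; SD, n = 2 in each group). TRAF4 and TRAF6 overlapped between the groups. Of the TRAF7 exons, 21.2% overlap CASKIN1 on the opposite strand, and 10.7% of the TRAF4 exons overlap an antisense gene. Per kilobase the order TRAF7, TRAF3, TRAF4, TRAF2, TRAF6, TRAF5, TRAF1 in WT changed only in that TRAF4 stood above TRAF3 in TMEM9 KD, with values of 11.2 and 10.1 CPM per kilobase.

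The signalling genes downstream of the receptors were described with 7 lists of 90 genes in all, of which 85 were tested. In TMEM9 KD 49 were lower, where 29% of all tested genes were, and 13 were higher, where 28.7% were. Their median log2 fold change was -0.30. The same shares over all tested genes, 29% lower and 28.7% higher, stand against the counts of each list below. Without WT library 1 or 2 the number of higher genes was 8 in each case.

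Receptor adaptors and ubiquitin ligases were split, with 7 higher and 6 lower of 14 tested, where 28.7% and 29% of all tested genes were. BIRC3, a ubiquitin ligase that TRAF2 brings to the receptors and that blocks cell death, averaged 148 ± 10.6 CPM in TMEM9 KD and 48.2 ± 1.45 CPM in WT (log2 fold change 1.61; edgeR, adjusted p = 5.03e-36). Its partner BIRC2 was also higher (0.74). TNIK (-1.26) and TANK (-0.75), which bind TRAF proteins, were lower. Among deubiquitinases and other brakes, 3 were lower and 1 higher of 10. Lower genes were thus about as frequent in this list as over all tested genes (29%). TNFAIP3, the ubiquitin-editing enzyme that ends NF-kB signalling, had 28.5 and 28.1 CPM in TMEM9 KD and 96.6 and 88.1 CPM in WT (log2 fold change -1.70; edgeR, adjusted p = 1.54e-33). BIRC3 and TNFAIP3 are both NF-kB targets, and their log2 ratio was 2.44 and 2.32 in TMEM9 KD libraries, against -1.03 and -0.84 in WT libraries. The TNFAIP3 partner TNIP1 was lower (-0.64), as was TAX1BP1 (-0.21), and TNIP2 was higher (0.42).

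Of 14 kinases and their subunits between the receptors and NF-kB or JNK, 8 were lower and 2 higher. MAP3K8 (-0.91), TAB2 (-0.67) and MAP3K5 (-0.67) were lower, and MAP3K14, the kinase of the alternative NF-kB pathway whose protein TRAF3 keeps low, was higher (0.61). Of 13 tested death signalling genes 8 were lower and 1 was higher. The initiator caspase CASP10 (-1.48), BID, which carries the signal to mitochondria (-1.25), the caspase inhibitor CFLAR (-0.68) and CASP9 (-0.53) had the largest changes. RIPK3, the kinase of necroptosis, had 1 and 2 counts in TMEM9 KD and none in WT.

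Genes that shed ligands and receptors from the surface, or control that step, were lower in 7 of 10 cases and higher in none. TIMP3, the inhibitor of the TNF-cleaving protease, had 17.4 and 16.7 CPM in TMEM9 KD, against 528 and 546 CPM in WT (log2 fold change -4.98; edgeR, adjusted p = 1.08e-75). The protease ADAM17 itself was lower (-0.55), as were RHBDF2 (-1.48) and FRMD8 (-0.49), which bring it to the surface. The list thus holds an inhibitor and the enzyme it inhibits, both lower. Of the 20 early NF-kB target genes that TNF induces, 14 were lower and 2 higher, with a median log2 fold change of -0.90. The chemokines CXCL3 (-2.87), CXCL1 (-2.74), CCL20 (-2.86) and CCL2 (-3.16) were lowest, CCL2 with at most 1.39 CPM in any library. CCL2 and CCL20 passed the read filter only through the WT libraries, and their calls are tied to that. PTX3, a soluble pattern receptor, was higher (2.16), as was REL (0.51). Among superfamily genes with other symbols, 3 of 4 tested were lower, and RELT was not called (0.28). Of the lower ones, NGFR and EDA passed the read filter only through the WT libraries. The lymphotoxin beta receptor LTBR, at 122 and 139.7 CPM in TMEM9 KD and 167 and 166 CPM in WT, had the smallest change of the 3 lower genes (-0.35).

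**Figure D5:**
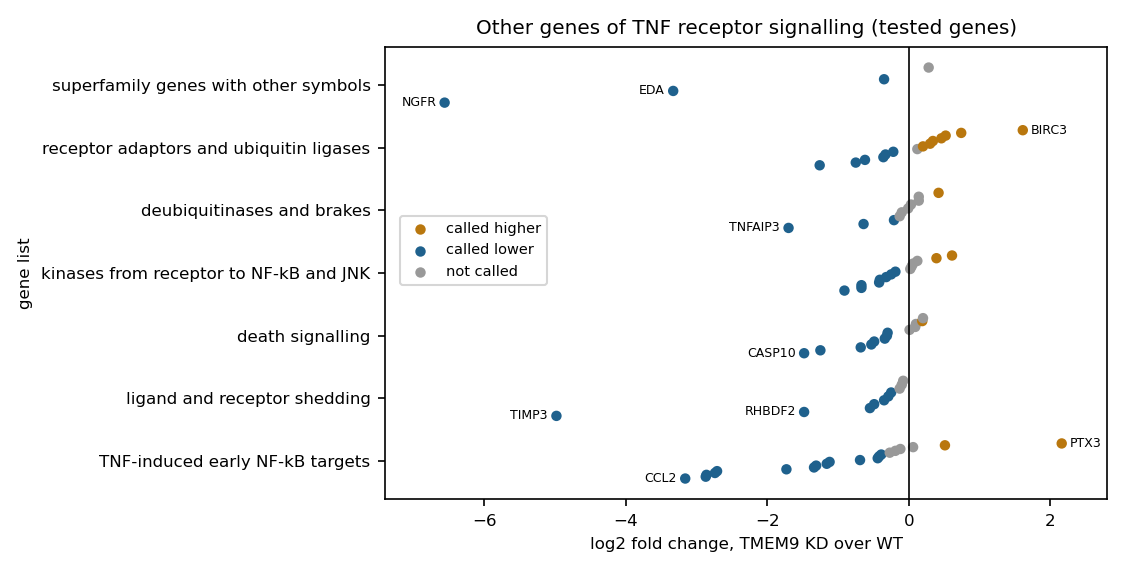
Log2 fold change of TMEM9 KD over WT for the 85 tested genes of 7 signalling lists, coloured by call; points are spread vertically within a list only to be seen. Adaptors lie on both sides of 0, no gene of the shedding list was called higher, and the NF-kB targets reach -3.16, with PTX3 at 2.16 on the other side.

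Promoter windows, from 250 bases before to 50 bases after a transcription start, were found in RefSeq (GRCh38.p14) for 33 of the 48 members, 47 windows in all. They were searched on both strands for GGNNTTTCC and GGNNTTCCC, short forms of the site that NF-kB dimers bind, since NF-kB targets were among the genes that differed. The 2 forms can overlap. CD70, CD40 and TNFRSF12A were among the members without a window. A match stood in 11 windows of 10 members (23.4% of the windows), where 12% of all 35116 RefSeq windows and 13.3% of those of tested genes hold one. It stood in 6 of 23 windows of members lower in TMEM9 KD (26.1%) and in 1 of 6 windows of members higher (16.7%). The windows share a gene in many cases and are few, so these shares are a description.

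The windows of TNFRSF9, TRAF1, TRAF3 and FAS are shown because these members were lower in TMEM9 KD and hold a match. That of TNFSF13 is shown as the one match among the higher members, and that of TNFSF10 as a member with a large difference and no match. Capitals mark the matched letters, and each sequence is given 5′ to 3′ on the strand of its gene in GRCh38.p14.
TNFRSF9 (chr1:7940790-7941089, minus strand): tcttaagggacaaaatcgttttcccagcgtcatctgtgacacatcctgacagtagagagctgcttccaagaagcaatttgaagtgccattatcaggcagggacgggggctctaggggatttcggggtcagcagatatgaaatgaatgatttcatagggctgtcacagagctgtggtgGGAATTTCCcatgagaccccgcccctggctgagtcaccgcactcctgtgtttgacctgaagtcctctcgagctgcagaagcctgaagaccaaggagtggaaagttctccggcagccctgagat
TRAF1 (chr9:120926747-120927046, minus strand): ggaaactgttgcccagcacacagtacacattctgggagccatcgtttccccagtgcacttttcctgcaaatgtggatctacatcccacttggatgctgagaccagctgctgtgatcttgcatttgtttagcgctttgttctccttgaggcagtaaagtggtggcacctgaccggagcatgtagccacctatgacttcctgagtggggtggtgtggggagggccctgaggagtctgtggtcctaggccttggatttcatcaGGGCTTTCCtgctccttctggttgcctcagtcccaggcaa
TRAF3 (chr14:102777199-102777498, plus strand): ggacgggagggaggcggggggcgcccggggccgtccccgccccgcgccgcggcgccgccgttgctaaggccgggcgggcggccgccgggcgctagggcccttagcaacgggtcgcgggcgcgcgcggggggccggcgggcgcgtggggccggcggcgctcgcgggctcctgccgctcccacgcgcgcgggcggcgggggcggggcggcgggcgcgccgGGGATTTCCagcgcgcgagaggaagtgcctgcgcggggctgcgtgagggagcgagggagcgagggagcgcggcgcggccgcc
FAS (chr10:88990548-88990847, plus strand): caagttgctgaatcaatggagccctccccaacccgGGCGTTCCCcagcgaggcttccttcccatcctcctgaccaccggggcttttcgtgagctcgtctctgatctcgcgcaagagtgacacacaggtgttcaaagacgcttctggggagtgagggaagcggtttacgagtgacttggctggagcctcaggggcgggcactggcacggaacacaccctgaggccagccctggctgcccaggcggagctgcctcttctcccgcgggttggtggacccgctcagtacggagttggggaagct
TNFSF13 (chr17:7558032-7558331, plus strand): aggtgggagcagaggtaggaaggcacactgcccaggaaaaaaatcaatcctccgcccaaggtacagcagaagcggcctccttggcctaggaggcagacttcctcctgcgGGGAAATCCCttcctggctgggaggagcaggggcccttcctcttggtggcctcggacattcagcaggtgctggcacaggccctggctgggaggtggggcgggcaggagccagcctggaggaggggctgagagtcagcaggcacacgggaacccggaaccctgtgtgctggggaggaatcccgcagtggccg
TNFSF10 (chr3:172523381-172523680, minus strand): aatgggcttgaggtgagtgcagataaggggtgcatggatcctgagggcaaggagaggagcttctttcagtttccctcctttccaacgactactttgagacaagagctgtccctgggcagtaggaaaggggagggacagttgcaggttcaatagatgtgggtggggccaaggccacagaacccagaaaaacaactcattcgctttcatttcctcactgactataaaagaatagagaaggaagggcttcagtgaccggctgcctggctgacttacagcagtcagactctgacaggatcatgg

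Counted from the start as position 0, the first matched base was at -73 in TNFRSF9, at -32 in TRAF3 and at -215 in FAS. In TRAF1 it was at 10, within the transcribed part, in the second of its 3 windows. FAS and TRAF5 also have 3 windows each, with a match only in window 1, and TNFSF13 has a match only in window 2. The TNFSF13 run holds matches at -141 and -140 that overlap each other. The other windows with a match were those of TNFRSF25, at 36, and TRAF5, at -144, both lower in TMEM9 KD, and of LTA, LTB and TNFRSF13B, which were not tested. Members that were lower (TNFRSF9, TRAF1, TRAF3, FAS, TNFRSF25 and TRAF5), one that was higher (TNFSF13) and 3 near 0 thus all held a match. No match in the TNFSF10 window says only that these letters are not in it.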

How the data were processed

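Per library, 1 ug of total RNA purified on silica columns was used, per the labels' protocols. The authors deposited raw counts per gene, with 1 column for each library. CASAVA and Bowtie 0.12.2 stand in the submitters' processing notes, as do hg19 and mm8, with no role for any of them. The sources used here do not state which counter, annotation and strand setting were used. The series text calls the profiles retinal, against the cell line in every label.

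Symbols, gene types, exon lengths and gene order came from GENCODE 29 and, for names, the tables given, without coordinates, since its build may not be the authors'. Genes passed edgeR's filter (minimum count 10, total 15, here 0.606 CPM in 2 libraries), leaving 14923. They were tested with edgeR 4.0.16 (R 4.3.3): TMM scaling, quasi-likelihood F test on group alone, Benjamini-Hochberg adjustment over all tested genes, threshold 0.05. Standard errors were taken as the size of the log2 fold change divided by the root of F. The biological coefficient of variation was 0.0498, with 2 residual degrees of freedom per gene. Libraries of a pair differed beyond counting noise (chi-square per degree of freedom 4.82 for TMEM9 KD, 2.04 for WT), so no pair agreed within sampling noise. The script was tested on simulated data. Promoter windows came from RefSeq.

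There were 13 alternatives: other scalings, no filter, a mean of at least 5 CPM, DESeq2 1.42.0, limma 3.58.1 voom, a test against 1.5-fold, the replicate number as a block, and each library left out. All members are named; values in every library are given for members past the threshold with at least 2-fold change or a mean of at least 5 CPM, and up to 4 genes per signalling list. The members and lists were chosen with earlier results of these data known. Symbols of 3 further signalling list entries were not matched.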

Additional observations from a re-analysis of the deposited data

How the results depend on the processing

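Of 13 alternatives, the call held in all 13 for 10 of the 26 called members, CD70, FAS, TNFRSF10B, TNFRSF10D, TNFRSF11B, TNFRSF12A, TNFRSF19, TNFRSF1A, TNFRSF21 and TNFSF9. For 19 members, these 10 included, it held in every alternative other than the test against 1.5-fold and the filter at a mean of 5 CPM. Tested against 1.5-fold, 4 members were higher and 12 lower, 1111 and 1692 of all genes, and 3 and 19 signalling genes, a stricter question by construction. With a mean of at least 5 CPM, which tests fewer genes, 11 members were lower. Leaving out 1 library gave 8 to 11 signalling genes higher, and the cause was not tested. The sign turned for 2 members that were not called: TNFRSF10C, at 0.0103 on library size alone and -0.55 to 0.33 with 1 library left out, and TNFSF15, at -0.0344 to 1.03. With the replicate number as a block, 7 members were higher and 19 lower and no member call changed; the numbers do not pair the libraries, whose deviations correlated at 0.000474 by number. Of the members not called, TRAF7 passed the threshold without TMEM9 KD library 2 (edgeR, adjusted p = 0.000779), TNFSF15 (0.0242), TRAF4 (0.0415) and TRAF6 (0.0491) without TMEM9 KD library 1, and TRAF2 (0.0368) and TRAF4 (0.0409) on library size alone. TNFSF13, TNFSF13B and TNFSF14 had at most 32 counts in a library, and their calls did not hold without some single libraries; neither did those of TNFSF12, TNFRSF11A, TRAF1 and TRAF5.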
